A study of Homo sapiens with 12 samples.

Results

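The 9 apolipoprotein genes APOA1, APOA2, APOA4, APOA5, APOB, APOC1, APOC3, APOE and APOH were examined for sites of the forkhead protein FoxK1 in HepG2 cells. Genes were chosen for their protein family, with earlier results of these data known. A peak was given to a gene when its summit lay within 5 kb of the gene's listed hg19 transcription start. The summit is the base with the most signal. A summit near more than 1 start went to the nearest. By this rule 139 of the 223205 peaks in 6 deposited lists belonged to the 9 genes, and they fell into 30 of the 68127 regions obtained by merging peaks that shared at least 1 bp in any of the lists.

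HepG2 is a single human line from a hepatocellular carcinoma, so it stands for hepatocytes only in part. All cells were kept in serum-free medium with albumin for 16 h. Insulin at 100 nM was then added for 20 min to the cells of 3 libraries, while the cells of the other 3 libraries were left untreated. Chromatin was fixed with formaldehyde and immunoprecipitated with an antibody to FoxK1. The labels do not say whether the 3 libraries of a treatment came from separate cultures, so the spread between them may be partly technical. Of the 12 samples, the 6 inputs were not analysed here. The lists held 48208, 45057 and 27503 peaks in insulin replicates 1, 2 and 3, and 44687, 31668 and 26082 peaks in untreated replicates 1, 2 and 3. The replicate 3 libraries had the shortest lists of both treatments, and their median summit in regions called in all 6 libraries held 29 fragments, against 51 to 87 in the other 4 libraries.

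Apolipoproteins are the protein parts of lipoproteins, the particles that carry cholesterol and triglyceride through the blood. APOB is the structural protein of very low and low density lipoprotein, APOA1 and APOA2 are the main proteins of high density lipoprotein, and the others exchange between particles and steer lipases and receptors. The liver is the main source of most of them, and insulin is a known regulator of several, APOC3 among them through the forkhead protein FOXO1. FoxK1 is a forkhead protein of another subfamily that recognises DNA of the same general kind, and its place in the cell is known to respond to insulin.

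FoxK1 peaks lay near every one of the 9 genes in at least 1 library. A peak assigned to the gene was present in all 6 libraries for 7 genes. APOA4 lacked one in untreated replicate 2, and APOE lacked one in both replicate 3 libraries. The number of genes with a peak was 9, 9 and 8 in insulin replicates 1, 2 and 3 and 9, 8 and 8 in untreated replicates 1, 2 and 3, or 8.67 ± 0.577 (SD, n = 3) against 8.33 ± 0.577 (SD, n = 3). Counted without regard to the nearest start, the 10 kb window around 8 of the 9 starts held a summit in all 6 libraries, and the APOE window did so in 4. Of 303367 windows of 10 kb laid end to end along the genome, 4.81% held a summit in all 6 libraries and 16.4% in any library. Those windows were not matched to gene starts or to active chromatin.

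Of the 30 regions, 13 (43.3%) were called in all 6 libraries, against 23.3% of all merged regions. Another 5 (16.7%) were called in 1 library, against 34.3% of all merged regions. These 5 were weak, with folds over the local background of 2.36 to 4.21 and places in the lowest 29.6% of their lists by −log10 q, the significance given by the peak caller. Of the 12 regions called in 2 to 5 libraries, 9 were missing from at least 1 replicate 3 library. Without both of those libraries, 16 regions were called in all of the other 4. These counts were not made over all merged regions, so they show nothing particular to the apolipoprotein genes. The plot of summit positions shows where on each gene these calls lie.

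**Figure D1:**
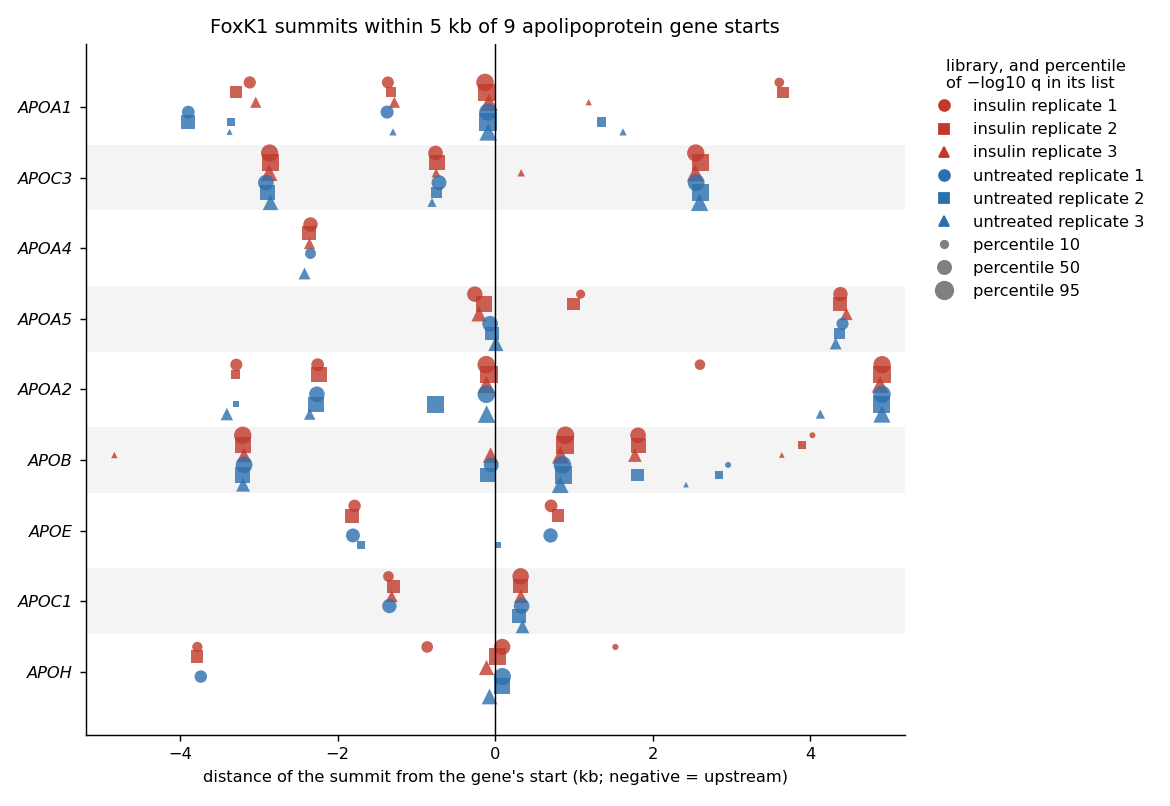
Position of every peak summit within 5 kb of the 9 apolipoprotein starts, in kb from the hg19 start with upstream negative. Colour gives the treatment, shape the replicate and size the percentile of −log10 q within the library's own list. APOA1, APOA5, APOC1 and APOH have summits within 400 bp of the start in all 6 libraries, while APOA4 and APOE have fewer calls.

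To set sites side by side across lists of unequal length, each of the 15887 regions called in all 6 libraries was ranked by −log10 q within each library, and its place was given as a percentile, with 100 as the strongest. The 13 apolipoprotein regions in that set spanned nearly its whole range, with a median of 62.4 for the mean percentile over 6 libraries. The mean percentile exceeded 50 for 8 regions and 75 for 5. Those 5 regions belonged to APOA1, APOA2 (with 2 regions), APOB and APOC3. Summits of most of the 13 regions fell close together between libraries, with a median range of 67 bp against 94 bp over all 15887 regions. The widest ranges were 859 bp for the region 3.33 kb upstream of APOA1 and 678 bp for the one at the APOA2 start.

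**Figure D2:**
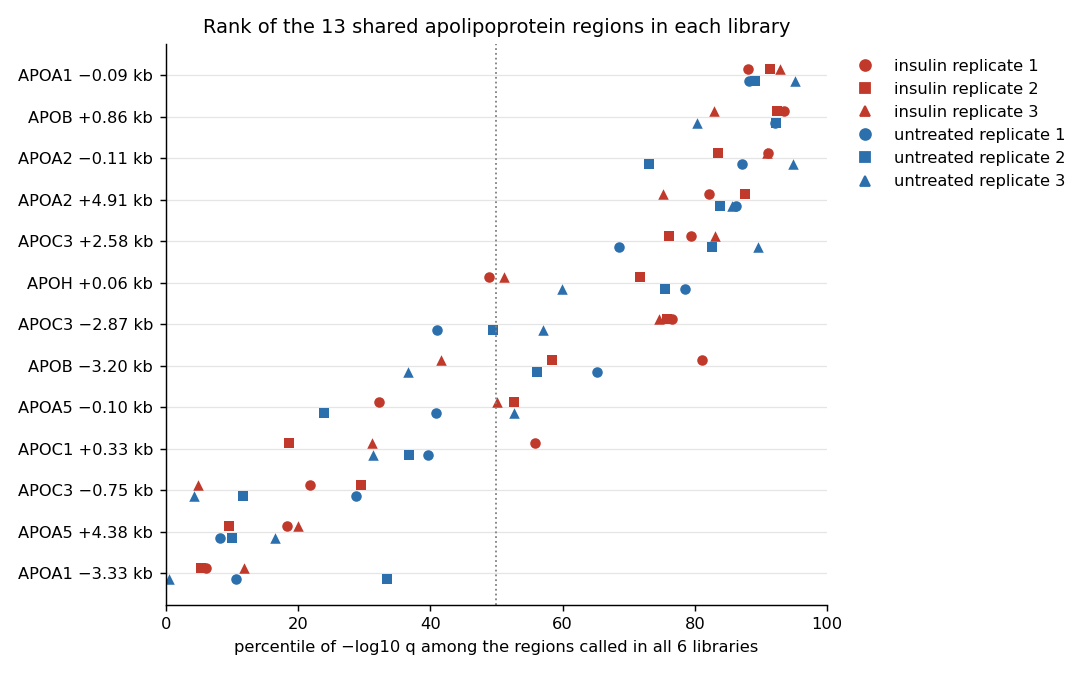
Percentile of −log10 q among the 15887 regions called in all 6 libraries, for the 13 apolipoprotein regions, with 1 point per library coloured by treatment. The region at the APOA1 start lies between 88.0 and 95.1 in every library, and the region 3.33 kb upstream of APOA1 lies between 0.482 and 33.5.

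APOA1, the main protein of high density lipoprotein and an activator of the enzyme that esterifies its cholesterol, carried the region with the highest mean percentile of the 13. It spanned chr11:116707488-116708951 and its summits lay 76 to 127 bp upstream of the start at chr11:116708338. The percentiles were 88.0, 91.3 and 92.9 in insulin replicates 1, 2 and 3, and 88.2, 89.1 and 95.1 in untreated replicates 1, 2 and 3. All 6 libraries therefore placed this promoter site among the strongest of the shared sites, and the treatments overlapped. Folds were 19.6, 19.0 and 16.4 after insulin and 10.6, 9.38 and 14.8 without it. The fold divides the signal by a local background that differed between libraries, so folds are comparable within a list and not across lists. Weaker regions surrounded this site. One lay 3.33 kb upstream at a mean percentile of 11.3. Its summits ran from 3039 to 3898 bp upstream, so its percentiles did not all refer to the same summit position. A region 1.33 kb upstream and a broad one of 2848 bp downstream were each called in 5 libraries. In the broad one, summits lay 3610 and 3657 bp past the start in insulin replicates 1 and 2. They lay 1189 to 1625 bp past it in insulin replicate 3 and untreated replicates 2 and 3. Only the 2728 bp peak of insulin replicate 2 joined these parts, so the broad region was not 1 site called in 5 libraries. Across the upstream and the broad region, the strongest peak of each library had a fold of 2.96 to 5.31.

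APOA2, the other abundant protein of high density lipoprotein, had a region at its start, chr1:161193144-161194892, with percentiles of 91.0, 83.5 and 90.8 after insulin and 87.1, 73.0 and 94.9 without it. The summits lay 112, 78, 110, 111 and 107 bp upstream of the start at chr1:161193418 in insulin replicates 1, 2 and 3 and untreated replicates 1 and 3. In untreated replicate 2 the summit lay 756 bp upstream, and that library also gave the lowest percentile. A region of similar strength, with a mean percentile of 83.4, lay at chr1:161188023-161189456. Its summits stood 4889 to 4915 bp downstream of the start, a range of 26 bp. That is past the end of this short gene, which is 1337 bp long in RefSeq on GRCh38, and on the side of its neighbour FCER1G. It is also the farthest site kept by the 5 kb limit. Among summits that belonged to none of the 9 genes, those between 5 and 6 kb from a start were 3 near APOB, the nearest of them 5293 bp away with a fold of 3.83. Further regions assigned to APOA2 lay 2.60 kb downstream (1 library), 2.26 kb upstream (5 libraries) and 3.29 kb upstream (4 libraries). The upstream ones lay on the side of its neighbour TOMM40L, and which gene they belong to was not tested.

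The promoter sequences below come from RefSeq on GRCh38.p14, whose table held 6 of the 9 genes, and they are shown because FoxK1 summits lay at or beside these 4 starts. Each line gives the 250 bases before the table's start, 5′ to 3′ on the gene's strand, and capitals mark forkhead cores. APOA2 is chr1:161223629-161223878 (minus strand), APOH is chr17:66229416-66229665 (minus), APOA5 is chr11:116792421-116792670 (minus) and APOC1 is chr19:44914422-44914671 (plus).
APOA2: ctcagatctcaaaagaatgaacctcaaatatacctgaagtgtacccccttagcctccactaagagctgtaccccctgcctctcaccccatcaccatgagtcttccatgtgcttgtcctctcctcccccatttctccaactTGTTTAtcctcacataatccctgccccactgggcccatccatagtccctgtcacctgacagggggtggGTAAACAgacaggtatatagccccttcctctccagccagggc
APOH: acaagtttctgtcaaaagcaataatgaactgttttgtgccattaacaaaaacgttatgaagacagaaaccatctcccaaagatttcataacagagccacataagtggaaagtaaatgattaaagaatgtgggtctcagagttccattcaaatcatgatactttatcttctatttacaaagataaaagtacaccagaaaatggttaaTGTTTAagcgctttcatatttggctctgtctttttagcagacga
APOA5: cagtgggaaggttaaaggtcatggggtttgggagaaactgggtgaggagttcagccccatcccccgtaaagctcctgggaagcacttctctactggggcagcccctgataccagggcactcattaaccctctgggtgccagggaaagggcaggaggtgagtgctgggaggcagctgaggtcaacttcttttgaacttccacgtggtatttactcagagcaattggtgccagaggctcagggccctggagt
APOC1: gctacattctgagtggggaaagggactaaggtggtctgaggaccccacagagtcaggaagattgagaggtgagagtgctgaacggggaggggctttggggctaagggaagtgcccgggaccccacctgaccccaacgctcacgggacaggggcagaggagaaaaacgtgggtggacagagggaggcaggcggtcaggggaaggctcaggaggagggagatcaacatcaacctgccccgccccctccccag
Over 300 bases per promoter (250 before and 50 after the start), the forkhead core GTAAACA on either strand was found in 1 of the 6 genes, APOA2, and in 4.19% of 27305 genes in the table. The shorter core TAAACA, which lies inside the longer one, was found on either strand in APOA2 and APOH and in 14.7% of genes. In APOA2 the longer core sat 42 to 36 bp before the start, and a separate copy of the shorter one, read on the other strand as TGTTTA, sat 110 to 105 bp before it. In APOH the TGTTTA sat 44 to 39 bp before the start. The APOA2 ChIP summits lay 107 to 112 bp upstream in 4 libraries, 78 bp upstream in insulin replicate 2 and 756 bp upstream in untreated replicate 2. They are measured from the hg19 start, and whether that start is the same base as the RefSeq start was not tested. No core was found in the windows of APOA4, APOA5, APOC1 or APOE.

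APOC3, an inhibitor of lipoprotein lipase and of the uptake of triglyceride-rich remnants, lies next to APOA1, and 3 of its 4 regions were called in all 6 libraries. The strongest, chr11:116702560-116703626, had summits 2544 to 2611 bp downstream of the start at chr11:116700624, inside the 3166 bp that RefSeq gives the gene on GRCh38. Its percentiles were 79.5, 76.1 and 83.0 after insulin and 68.5, 82.6 and 89.6 without it, with overlap between the treatments. A site just upstream of the start, chr11:116699601-116700764, is where the liver enhancer of this gene cluster is known to lie. Its summits stood about 748 bp upstream, and it was one of the weak shared sites, at 21.8, 29.5 and 4.86 after insulin and 28.7, 11.7 and 4.20 without it. The remaining shared region, chr11:116697089-116698085, had summits 2852 to 2911 bp upstream of APOC3, between APOC3 and APOA4. It is described with the insulin comparison. The last APOC3 region, 332 bp downstream of the start, was called only in insulin replicate 3, with a fold of 3.28.

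APOA4, a protein of chylomicrons and high density lipoprotein made mostly in the intestine, had 1 region of its own, chr11:116696083-116696946. Its summits lay 2346 to 2423 bp upstream of the start at chr11:116694011. The folds were 7.02, 4.87 and 4.37 in insulin replicates 1, 2 and 3, and 3.52 and 4.10 in untreated replicates 1 and 3. This site was weaker than the neighbouring APOC3 region, and no summit of any library lay nearer to the APOA4 start. APOA5, which promotes lipolysis of triglyceride-rich particles, had a region at its start, chr11:116662935-116663696. There the percentiles were 32.2, 52.7 and 50.04 after insulin and 40.9, 24.0 and 52.6 without it. The summits were spread from 257 bp upstream to 10 bp downstream of chr11:116663136, so this site was both weaker and less sharply placed than the one at APOA1. A second shared region lay 4.38 kb downstream at a mean percentile of 13.7. That is past the end of this gene, which is 3054 bp long in RefSeq on GRCh38. It lay on the side of the neighbour ZPR1, and which gene the site belongs to was not tested. Another APOA5 region, 1.04 kb downstream, was called only in insulin replicates 1 and 2.

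These 4 genes sit in a row on chromosome 11, and the map of the cluster shows their sites together. Within 50 kb of the APOA1, APOC3 and APOA4 starts lay 8 regions called in all 6 libraries, and within 50 kb of APOA5 lay 9. Over all shared regions, the median number of other shared regions within 50 kb was 1, and the 90th percentile was 4. That count is centred on a region and leaves it out, whereas the gene windows are centred on starts and include sites at them. More than 5 kb from the start, the gene windows held 6, 5, 7 and 7 shared regions for APOA1, APOC3, APOA4 and APOA5. Because the windows overlap, they count largely the same sites. Of these sites, 2 belonged to none of the 9 genes by the 5 kb rule. One lay 19.4 kb downstream of the APOA5 start at chr11:116643197-116644210, on the side of the neighbours ZPR1 and BUD13, with a mean percentile of 51.4. The other spanned chr11:116678721-116680693, between APOA5 and APOA4, 16.6 kb upstream of the APOA5 start. Its percentiles were 86.2, 76.9 and 59.1 after insulin and 74.0, 78.6 and 46.4 without it, which placed it above the site at the APOA5 start in 5 of 6 libraries.

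**Figure D3:**
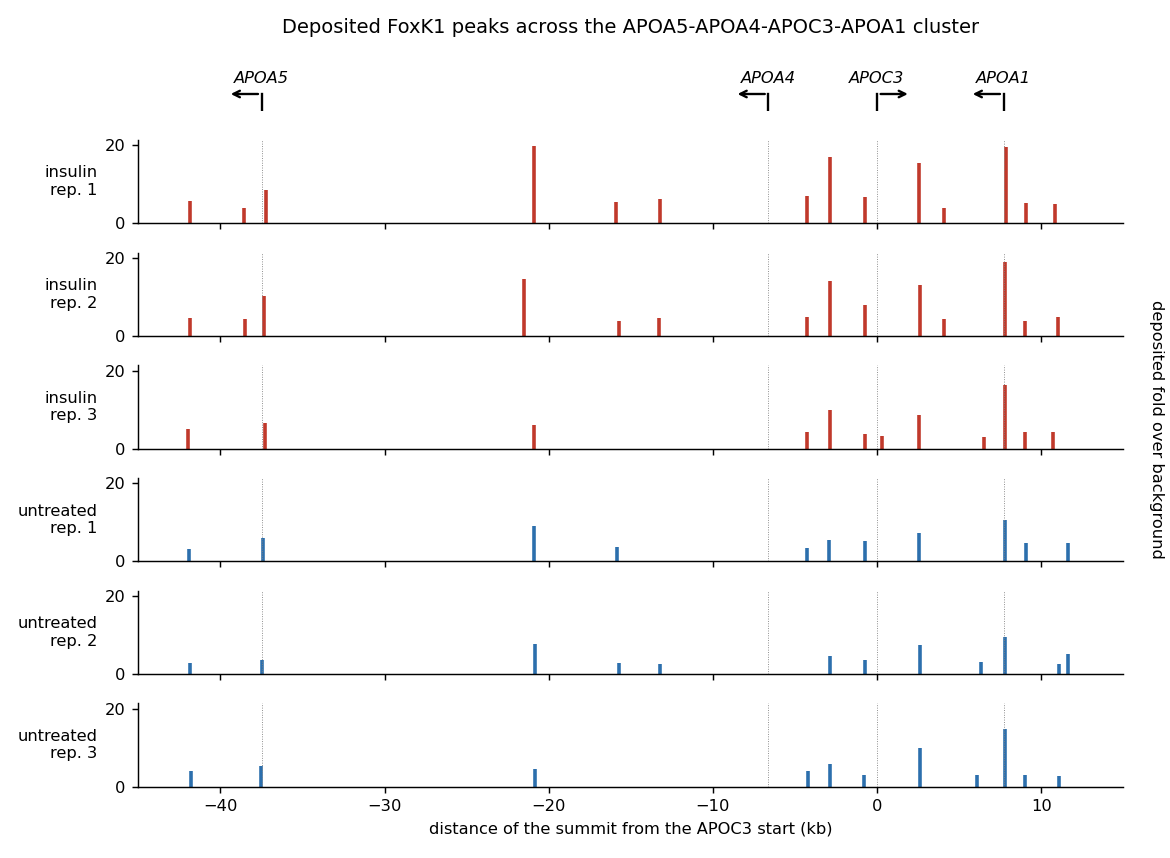
Peaks of each library across the APOA5, APOA4, APOC3 and APOA1 cluster, by distance in kb from the APOC3 start, with bar height giving the deposited fold and arrows marking the starts. The tall bars at the APOA1 start and within APOC3 recur in every library. Bar heights are comparable within a library and not between libraries.

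APOB, the single large protein of each very low and low density lipoprotein particle, held the strongest apolipoprotein peak in 4 of the 6 lists, at rank 1043 of 48208 in insulin replicate 1, rank 1211 of 45057 in insulin replicate 2, rank 1268 of 44687 in untreated replicate 1 and rank 1251 of 31668 in untreated replicate 2. In both replicate 3 libraries the APOA1 promoter peak led instead, at rank 1127 of 27503 and rank 771 of 26082. The APOB region spanned chr2:21264598-21267443 and reached across the start at chr2:21266945, but its strongest summit lay 828 to 894 bp downstream, in the first part of the gene where a liver enhancer is known. The percentiles were 93.4, 92.4 and 82.9 after insulin and 92.1, 92.2 and 80.3 without it. In each treatment, replicate 3 was the lowest. An upstream region, chr2:21269869-21270845, had summits that agreed to within 21 bp, 3187 to 3208 bp before the start. It gave 81.0, 58.4 and 41.7 after insulin and 65.2, 56.1 and 36.5 without it, again lowest in replicate 3. At both sites the treatments overlapped, while the insulin value was the higher one in all 3 pairs of libraries with the same number. With the number as a block, the unadjusted limma p was 0.741 for the first site and 0.340 for the second. The share of all shared regions with the same direction in all 3 pairs was not counted. A region 4835 bp upstream was called only in insulin replicate 3, with a fold of 2.91. Farther upstream, 2 strong shared sites lay outside the 5 kb limit, 12.4 kb and 26.4 kb from the start, with mean percentiles of 88.4 and 93.2. Between them, a shared site 23.2 kb upstream had percentiles of 61.9, 41.3 and 56.7 after insulin and 81.5, 74.3 and 88.9 without it. Every insulin library there stood below every untreated one, which held for 4.31% of all shared regions.

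APOE, the ligand by which remnants are taken up through the LDL receptor family, and APOC1, an inhibitor of that uptake, are neighbours on chromosome 19. APOE had no region called in all 6 libraries. Its upstream region, chr19:45406818-45407647, about 1.79 kb before the start at chr19:45409039, had folds of 4.53 and 5.86 in insulin replicates 1 and 2 and 3.99 and 2.62 in untreated replicates 1 and 2. The region across the start, chr19:45407975-45410138, had folds of 5.36 and 4.39 in insulin replicates 1 and 2 and 5.25 and 2.37 in untreated replicates 1 and 2. In that region the summit lay 705 to 800 bp downstream in 3 libraries and 35 bp downstream in untreated replicate 2. Neither region was called in a replicate 3 library. Those are the libraries with the fewest fragments at shared summits, and the part of depth in these missing calls was not tested.

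APOC1 had a shared region, chr19:45417144-45418557, with summits 298 to 344 bp downstream of the listed start at chr19:45417577. Its percentiles were 55.8, 18.6 and 31.2 after insulin and 39.7, 36.8 and 31.3 without it. The highest and the lowest values were both from insulin libraries, so the site varied more within that treatment than between treatments. In RefSeq on GRCh38, the APOC1 start of the promoter table lies 347 bp downstream of the first base of the gene, and the summits are thus about as far from the listed hg19 start as these 2 RefSeq positions are from each other. A second APOC1 region, 1.33 kb upstream, was called in all insulin libraries and in untreated replicate 1, with folds of 4.15, 4.75, 3.65 and 5.49. Stronger shared sites stood outside the 5 kb limit. One lay 15.2 kb upstream of APOE at chr19:45393085-45395098 with a mean percentile of 79.0, on the side of the neighbour TOMM40. Another lay 10.1 kb downstream of the APOC1 start at chr19:45427340-45428170 with a mean percentile of 72.0. That is the side of APOC1 where the hepatic control regions of these genes are known to lie. Which genes these sites belong to was not tested.

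**Figure D4:**
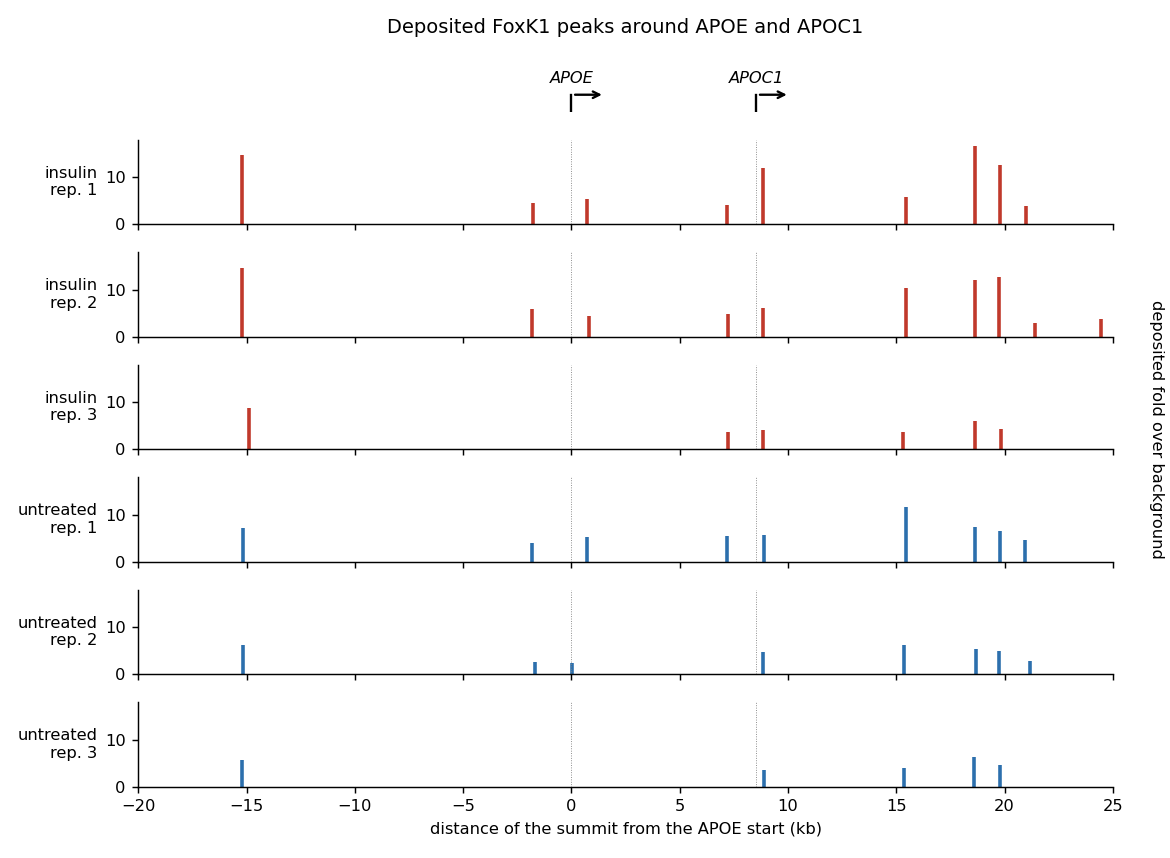
Peaks of each library across the APOE and APOC1 cluster, by distance in kb from the APOE start, with bar height giving the deposited fold and arrows marking the starts. Bars at APOE stay between 2.37 and 5.86 and are missing from both replicate 3 libraries, while the bars 15.2 kb upstream of APOE are present in all 6.

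APOH, also called beta-2 glycoprotein I, binds phospholipid and is found in part on lipoproteins. Its region chr17:64224762-64226613 lay on the start at chr17:64225556, with its strongest summit from 114 bp upstream to 93 bp downstream. The percentiles were 48.8, 71.8 and 51.2 after insulin and 78.5, 75.5 and 59.9 without it. Insulin values were the lower ones on average, but insulin replicate 2 exceeded untreated replicate 3, so the treatments overlapped. Between libraries with the same number, the insulin value was the lower one in all 3 pairs. How many of all shared regions did the same was not counted. With the number as a block, the unadjusted limma p for APOH was 0.158. Within 50 kb of APOH lay 2 shared regions, the fewest of the 9 genes. Its other regions were weak, 1 called in 3 libraries 3.78 kb upstream and 1 called only in insulin replicate 1.

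The comparison of insulin with no insulin asks whether FoxK1 sites at apolipoprotein genes gained or lost strength within 20 min. No apolipoprotein region changed past the threshold. Ranks within each library were converted to normal scores, in which 1 unit is 1 SD of the 15887 regions, and compared with limma across all of them. After Benjamini-Hochberg adjustment, 0 of 13 apolipoprotein regions and 0.0% of all regions had an adjusted p under 0.05, the lowest adjusted p over all regions being 0.999. At an unadjusted p under 0.05 there was 1 of 13, against 4.09% of all regions. The score was higher after insulin in 7 of the 13 and lower in 6, with a median difference of 0.07 against 0.01 over all regions. The median size of the difference, whatever its sign, was 0.13 in the 13 and 0.21 over all regions.

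The region with the unadjusted p under 0.05 was the one 2.87 kb upstream of APOC3. Its percentiles were 76.6, 75.8 and 74.5 in insulin replicates 1, 2 and 3, and 41.0, 49.4 and 57.1 in untreated replicates 1, 2 and 3. Every insulin library stood above every untreated one, and the insulin values lay close together. This was the only one of the 13 regions (7.69%) ranked higher in all insulin libraries, against 4.66% of all shared regions, and 0 of 13 were ranked lower in all, against 4.31%. With 3 libraries against 3, an exact permutation test of a single region cannot go below a two-sided p of 0.1. The difference was 0.72 score units (SE 0.23), with an unadjusted limma p of 0.0122 and an adjusted p of 0.999. Of all shared regions, 2.13% had a larger difference in the same direction.

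The fragments behind this site were recovered from the deposited fold and −log10 p. The summit held 87, 123 and 35 fragments after insulin and 82, 57 and 29 without it, with exact Poisson 95% intervals that cover counting error only. In replicate 1 they ran from 69.7 to 107 after insulin and from 65.2 to 102 without it, in replicate 2 from 102 to 147 and from 43.2 to 73.9, and in replicate 3 from 24.4 to 48.7 and from 19.4 to 41.6. The local background expected there was 4.17, 7.83 and 2.68 fragments after insulin and 14.3, 11.6 and 4.05 without it. The background was lower in the insulin library of every pair with the same number. Mean background was also lower after insulin at every other shared apolipoprotein region, for example 6.13 against 9.92 fragments at the APOA1 start. The lower background was thus not particular to this site, but its size differed between regions. Insulin minus untreated, mean background was −5.09 fragments here. Over the shared apolipoprotein regions it ran from −0.882 for APOA1 3.33 kb upstream to −5.29 for the leading APOB site. The part of background in the rank difference was not tested. The summit intervals overlapped in replicates 1 and 3 and stood apart in replicate 2. Divided by the library's median over all shared regions, the summit fragments were 1.45, 1.5 and 1.21 after insulin and 0.943, 1.12 and 1.00 without it. The insulin values were again the higher ones, by less than for the fold. When regions were ranked by fragments in place of −log10 q, the difference was 0.50 with an unadjusted p of 0.0276. Over 11 alternatives the difference ran from 0.50 to 0.93, the unadjusted p from 0.00994 to 0.0481, and the limma adjusted p from 0.759 to 1.00. That range includes a fit on quantile-normalized log2 fold, whose difference is in log2 fold and not in score units. Without both replicate 3 libraries the difference was 0.83 score units. At the neighbouring APOC3 sites, the difference was −0.06 (SE 0.27) for the one 2.58 kb downstream and 0.17 (SE 0.39) for the one 748 bp upstream. The differences between these sites and the one 2.87 kb upstream were not tested.

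**Figure D5:**
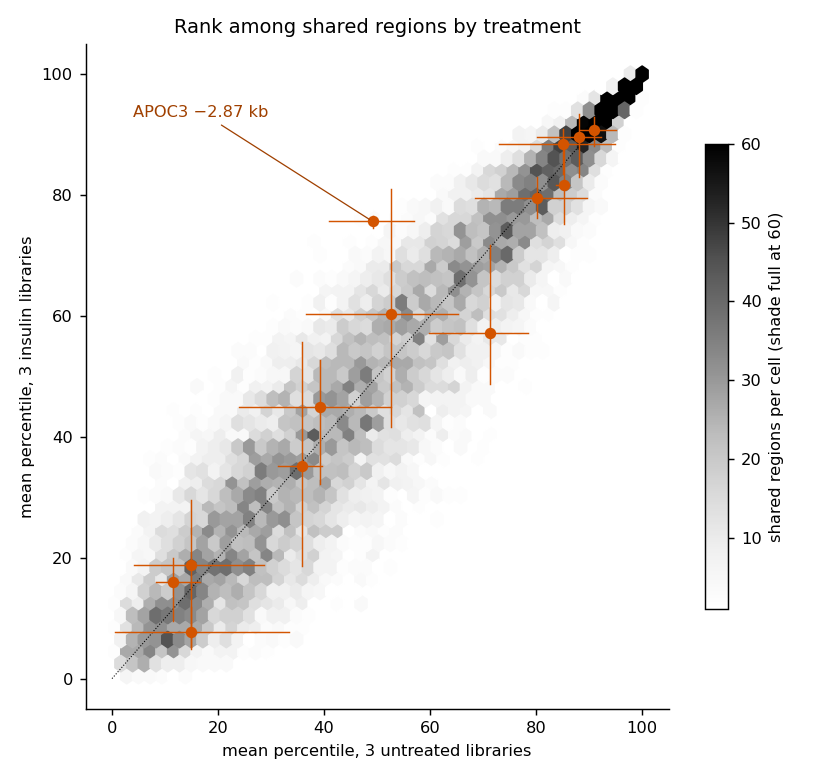
Mean percentile of −log10 q over the 3 insulin libraries against that over the 3 untreated libraries, for all 15887 shared regions (grey cells, darker where more regions fall) and the 13 apolipoprotein regions (points, with lines from the lowest to the highest library of each treatment). The dotted line marks equal ranks, and the APOC3 region 2.87 kb upstream is the labelled point above it, at 75.6 after insulin against 49.1 without.

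At the sites nearest the starts, the difference was −0.02 (SE 0.24) for APOA1, 0.09 (SE 0.30) for APOA2, 0.16 (SE 0.29) for APOA5, −0.05 (SE 0.30) for APOC1 and −0.38 (SE 0.27) for APOH, and it was 0.07 (SE 0.27) for the leading APOB site. Unadjusted p-values of the 12 regions other than the APOC3 one ran from 0.195 to 0.950. With standard errors of this size, differences of the size seen at these sites were not detectable.

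By presence alone, 0 of 30 apolipoprotein regions were called in all insulin and no untreated libraries, against 0.376% of all merged regions. In the opposite direction there was 1, at chr2:21263765-21264544 in APOB, against 0.0352% of all merged regions. It was weak, with folds of 2.27, 2.49 and 2.44, and its summits lay 2960, 2839 and 2425 bp downstream of the start. Its places in the lists were at the 3.50, 12.9 and 2.06 percentile. The peaks of untreated replicates 1 and 3 shared no base and were joined only by the peak of untreated replicate 2. No single position was thus called in all untreated libraries, and without untreated replicate 2 there was no such region. The insulin libraries had similarly weak peaks 3642 to 4031 bp downstream in regions of their own. Without insulin replicate 3, the count in the other direction became 2 (APOA5 1.04 kb downstream and APOB 3.96 kb downstream), and without untreated replicate 1 it became 1 (APOC1 1.33 kb upstream).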

How the data were processed

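FoxK1 chromatin immunoprecipitation was measured in 6 libraries of HepG2 cells, 3 per treatment, grouped and numbered by their titles. Per the submitters' processing notes, the authors' tools were fastp, Bowtie2, SAMtools and MACS2 with build hg19. Tool versions, the threshold for calls and any use of the inputs as control were not given in the sources used here. Each list was called on 1 library. The deposited fold is a linear ratio of the summit over local background. The deposited −log10 p and −log10 q grow with depth. The deposited score, a whole number per peak, was not used. Summit positions are as deposited by the authors.

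Sequencing depth is unknown. Fragments k at a summit were derived from the deposited fold, taken as (k + 1)/(background + 1), and the Poisson tail, and came out whole, within 0.0005, for 100% of peaks in 5 libraries and 99.997% in untreated replicate 2. Regions merge peaks sharing at least 1 bp, the strongest peak standing for a library that has several there. Ranks use the 15887 regions called in all 6 libraries, and their normal scores were fitted with limma 3.58.1 in R 4.3.3 (Benjamini-Hochberg adjustment, threshold 0.05) without a replicate block. The fit was tested on simulated data with shifts larger than any difference at the apolipoprotein regions, so smaller shifts were not covered. Other steps used Python 3.11.15, pandas 2.3.3, numpy 2.4.6, scipy 1.17.1 and matplotlib 3.10.9. Around the treatment means, deviations of libraries sharing a number correlated at 0.110, 0.269 and 0.284 for replicates 1, 2 and 3, and those of other pairs at −0.296 to 0.0896, so the numbers were treated as pairing the libraries in an alternative fit.

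All 9 genes are named with all their regions. The genes, lists and tests were chosen with earlier results of these data known. Strands of APOA1, APOC3 and APOB are from general knowledge and the others from RefSeq. The RefSeq tables are on GRCh38.p14, so exons, introns and other lipoprotein genes were not analysed here on hg19. Alternatives changed the distance limit, region definition, significance limit, list length, ranking, library set and motif length.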

Additional observations from a re-analysis of the deposited data

How the results depend on the processing

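The count of regions called in all 6 libraries was 13 with the 5 kb limit, 7 within 2 kb and 14 within 10 kb. It fell to 10 when summits had to lie within 100 bp, 10 at −log10 q of at least 5 and 11 with equal list lengths. With 1 library left out it ran from 13 to 15. The excess of genes with a peak after insulin was 0.333, became 0.0 within 1, 2 or 10 kb, 0.667 at −log10 q of at least 5 and 1.00 with lists shortened to equal length, and ran from 0.167 to 0.667 with 1 library left out. Regions present only after insulin numbered 0, and 0 to 2 with 1 library left out, and 2 without replicate 3 in both treatments, an alternative chosen after seeing the data. Regions present only without insulin numbered 1, but 0 when summits had to lie within 100 bp, within 2 kb of the start, at −log10 q of at least 5 or with equal list lengths, and 0 to 1 with 1 library left out. The forkhead core was in 1 gene and the looser one in 2. limma called 0 regions under every alternative. With the replicate block it also called 0, the APOC3 region 2.87 kb upstream having an unadjusted p of 0.0158 and an adjusted p of 0.759, and the pairing changed no other call. None of the rank differences that changed sign had passed the test. With 1 library left out, the difference ran from −0.62 to 0.47 for APOA1 3.33 kb upstream, −0.11 to 0.13 at the APOA1 start, −0.17 to 0.34 at the APOA2 start, −0.0488 to 0.338 at the APOA5 start, −0.12 to 0.25 for the leading APOB site, −0.0661 to 0.479 for APOB 3.20 kb upstream, −0.33 to 0.19 for APOC1, −0.27 to 0.12 for APOC3 2.58 kb downstream and −0.12 to 0.50 for APOC3 748 bp upstream. Ranked by fold, the APOA1 start differed by 0.0136. Without replicate 3 in both treatments it differed by 0.0581 and APOC3 2.58 kb downstream by 0.0568. Ranked by fragments, which was chosen after seeing the data, APOA5 at the start differed by −0.00624 and APOA1 3.33 kb upstream by 0.368. The cause was not tested. The replicate 3 libraries held 29 fragments at the median shared summit, and the part of depth in their missing calls was not tested.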
